A study of Mus musculus with 12 samples.

Results

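The 10 genes described here encode small leucine-rich proteoglycans of the extracellular matrix, and they were chosen by symbol: Fmod, Dcn, Lum, Bgn, Ogn, Omd, Prelp, Aspn, Nepn and Podn. They are 10 of the 24340 rows of each deposited gene table, and all 10 were tested by the authors in both tables. The series holds RNA-seq of 12 mouse samples of cardiac origin, 3 in each of 4 groups. The groups used here are knockout of the epidermal growth factor receptor (EGFR) at 9 weeks of age (9wkKO), the same genotype at 7 weeks (7wkKO), and wild type at 7 weeks (7wkWT). Wild type at 9 weeks was not analysed here, so in the comparison of 9wkKO with 7wkKO a change with age that wild type would share and a change particular to the knockout cannot be told apart. The series' design text places the deletion in the heart, while its driver, the deleted exons, the strain and any pooling of animals are not given in the sources at hand. Those sources do not say either whether the samples of 1 group were separate animals, so the deposited p-values measure the spread between these samples, which may be technical.

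Values are FPKM, which scale fragment numbers by transcript length and sequencing yield. The authors' deposited tables give 1 FPKM per group and none per sample, so the spread between samples and the depth of each sample are unknown. Folds are the log2 ratio of the deposited group values. A gene is called where its deposited Cuffdiff q was under 0.05. The standard error (SE) of a fold is the fold divided by the deposited test statistic, and 95% intervals are the fold ± 1.96 SE. Egfr itself was listed at 1.64 FPKM in 7wkKO and 1.20 FPKM in 7wkWT (deposited q = 0.379), so this gene-wide value was no check of genotype. The ventricular marker Myl2 was listed at 21978 FPKM in 9wkKO, 21145 FPKM in 7wkKO and 24956 FPKM in 7wkWT in the authors' deposited tables, so this defining cardiac transcript was present in every group.

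Small leucine-rich proteoglycans are secreted proteins whose leucine-rich repeats form a curved surface that binds collagen. They limit and order the growth of collagen fibrils, and several of them hold growth factors such as TGF-beta in the matrix. In the heart they are made mainly by fibroblasts and valve cells. Decorin (Dcn), biglycan (Bgn) and asporin (Aspn) belong to class I. Decorin and biglycan carry chondroitin or dermatan sulfate chains, whereas asporin carries none. Fibromodulin (Fmod), lumican (Lum), prolargin (Prelp) and osteomodulin (Omd) belong to class II, of which several carry keratan sulfate. Osteoglycin (Ogn) is a class III member and podocan (Podn) a class V member. Nephrocan (Nepn) was described in the mouse as an inhibitor of TGF-beta signalling. Soluble decorin is also known as a ligand that binds EGFR and lowers its activity.

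The highest level of the 10 was 453 times the lowest in 9wkKO, 465 times in 7wkKO and 319 times in 7wkWT. Dcn was the most abundant member, at 403 FPKM in 9wkKO, 492 FPKM in 7wkKO and 478 FPKM in 7wkWT in the authors' deposited tables. It made up 51.2% of the summed FPKM of the 10 genes in 9wkKO, 48.8% in 7wkKO and 53.1% in 7wkWT. Bgn came second in every group, at 215 FPKM in 9wkKO, 280 FPKM in 7wkKO and 219 FPKM in 7wkWT. Lum, Ogn, Prelp and Aspn followed between 21.6 and 66.3 FPKM, and Podn came next in every group. Fmod, Nepn and Omd stood at the low end, between 0.890 and 11.5 FPKM. The order changed at 2 places. Lum was above Ogn in 7wkKO (66.3 against 65.1 FPKM) and below it in 9wkKO and 7wkWT, and Nepn had the rank 8 in 9wkKO, 10 in 7wkKO and 9 in 7wkWT. With no value per sample, whether neighbours in this order differed beyond their spread could not be assessed. The summed FPKM of the 10 genes was 786 in 9wkKO, 1009 in 7wkKO and 900 in 7wkWT. In whole-tissue RNA, fewer cells of a type and less RNA per cell cannot be told apart.

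**Figure D1:**
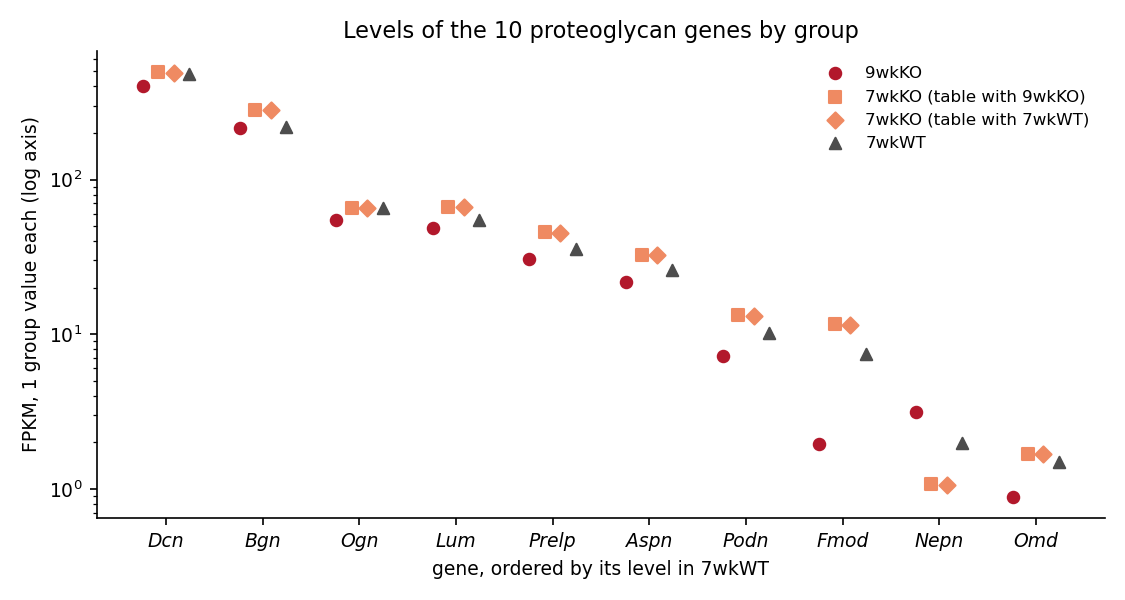
FPKM of each gene (log axis) as the authors deposited it, 1 value per group, for 9wkKO, 7wkKO (from each of the 2 tables) and 7wkWT. Dcn and Bgn lie above 200 FPKM in every group, the 9wkKO point is the lowest for every gene except Nepn, where it is the highest, at 3.14 FPKM.

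Between 7 and 9 weeks the knockout samples differed in 5 of the 10 genes, 4 lower and 1 higher in 9wkKO. The keratan sulfate class member Fmod fell most, Podn, Prelp and Lum fell by smaller amounts, and Nepn rose. For comparison, 4.66% of the 12046 tested genes were called, 2.76% lower and 1.89% higher. At an unadjusted p under 0.05 there were 6 of the 10, against 12.9% of all tested genes. The fold was below 0 for 9 of the 10 and their median log2 fold was -0.53, beside 0.01 over all tested genes.

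Fmod, which binds collagen fibrils and guides their cross-linking, was listed at 1.94 FPKM in 9wkKO and 11.6 FPKM in 7wkKO in the authors' deposited table. Its log2 fold was -2.58 ± 0.354 (SE), with a 95% interval of -3.27 to -1.89 (Cuffdiff p = 5e-05, the smallest in the authors' table, and q = 0.00237). Among 11362 tested genes that reached 1 FPKM in both groups, 6 had a lower fold. Beside it, the summed level of the atrial muscle markers was 847 FPKM in 9wkKO and 3037 FPKM in 7wkKO, and that of the tendon and cartilage markers 28.9 FPKM in 9wkKO and 47.0 FPKM in 7wkKO. Their part in the Fmod result was not tested. Podn, a collagen-binding matrix protein, was listed at 7.21 FPKM in 9wkKO and 13.3 FPKM in 7wkKO in the authors' deposited table. Its log2 fold was -0.88 ± 0.255 (deposited Cuffdiff q = 0.00237). Prelp, which anchors basement membranes to the connective tissue beneath, was listed at 30.4 FPKM in 9wkKO and 45.6 FPKM in 7wkKO in the authors' deposited table. Its log2 fold was -0.59 ± 0.243 (deposited Cuffdiff q = 0.00237). Lum, which regulates collagen fibril assembly, was listed at 48.3 FPKM in 9wkKO and 66.8 FPKM in 7wkKO in the authors' deposited table. Its log2 fold was -0.47 ± 0.240, with an interval of -0.94 to 0.00 (Cuffdiff p = 0.00075, q = 0.0216 in the authors' table). Nepn ran against these, with 3.14 FPKM in 9wkKO and 1.07 FPKM in 7wkKO in the authors' deposited table. Its log2 fold was 1.56 ± 0.462 (deposited Cuffdiff q = 0.00237), and 5 of those 11362 genes had a higher fold.

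The abundant class I members did not pass the threshold. Bgn was listed at 215 FPKM in 9wkKO and 282 FPKM in 7wkKO by the authors' table (log2 fold -0.39, interval -0.90 to 0.12, Cuffdiff p = 0.00985, q = 0.141). Dcn was listed at 403 FPKM in 9wkKO and 496 FPKM in 7wkKO (log2 fold -0.30, interval -0.83 to 0.23, deposited Cuffdiff q = 0.414). Aspn, which competes with decorin for collagen, was listed at 21.6 FPKM in 9wkKO and 32.5 FPKM in 7wkKO (log2 fold -0.59, deposited Cuffdiff q = 0.500). This fold equals that of Prelp, while its SE was 0.569 against 0.243 for Prelp. Ogn was listed at 54.9 FPKM in 9wkKO and 65.6 FPKM in 7wkKO (log2 fold -0.26, deposited Cuffdiff q = 0.748). Omd, at 0.890 FPKM in 9wkKO and 1.69 FPKM in 7wkKO, had a log2 fold of -0.92 with an interval of -6.40 to 4.55 (deposited Cuffdiff q = 0.989). Each of these 5 intervals includes the fold of Prelp (-0.59). A normal p taken from the deposited statistic, in place of the deposited p, kept the call of Fmod and ended those of Podn, Prelp, Lum and Nepn.

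**Figure D2:**
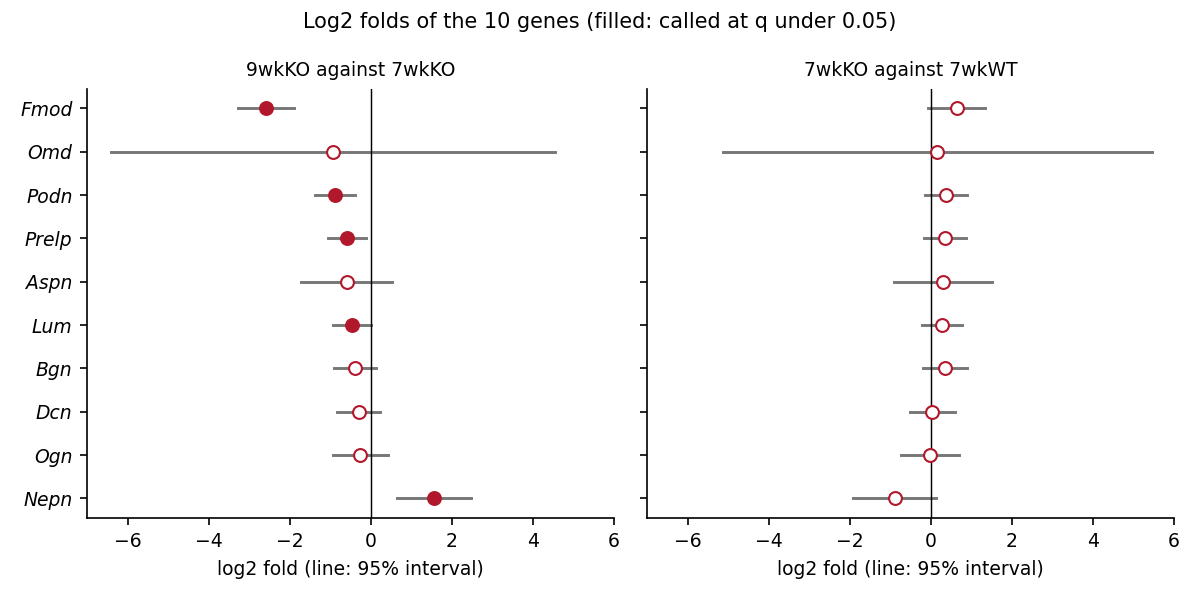
Log2 fold of each of the 10 genes (points, filled where called at a deposited q under 0.05) with its 95% interval implied by the deposited statistic (lines), for 9wkKO against 7wkKO (left) and 7wkKO against 7wkWT (right). Fmod lies at -2.58 and Nepn at 1.56 on the left, no point is filled on the right, and the lines of Omd are the widest.

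At 7 weeks 0 of the 10 genes were called between knockout and wild type, where 2.37% of the 11987 tested genes were called, 1.67% higher and 0.701% lower. At an unadjusted p under 0.05 there were 5 of the 10 (4 with a fold above 0 and 1 below), beside 11.3% of all tested genes. The fold was above 0 for 8 of the 10, with a median log2 fold of 0.29, beside 0.00 over all tested genes. Fmod was listed at 11.5 FPKM in 7wkKO and 7.40 FPKM in 7wkWT in the authors' deposited table (log2 fold 0.64 ± 0.361, interval -0.07 to 1.34, deposited Cuffdiff p = 0.00255, q = 0.0813). Nepn was listed at 1.06 FPKM in 7wkKO and 1.97 FPKM in 7wkWT (log2 fold -0.89 ± 0.526, Cuffdiff p = 0.00410, q = 0.109 in the authors' table). These were the highest and the lowest fold among the 10 genes, and neither passed the threshold.

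Podn, Prelp and Bgn had nearly equal folds at 7 weeks. Podn was listed at 13.2 FPKM in 7wkKO and 10.1 FPKM in 7wkWT in the authors' deposited table (log2 fold 0.38, deposited Cuffdiff q = 0.217). Prelp was listed at 45.3 FPKM in 7wkKO and 35.4 FPKM in 7wkWT (log2 fold 0.36, q = 0.269 in the authors' deposited Cuffdiff test). Bgn was listed at 280 FPKM in 7wkKO and 219 FPKM in 7wkWT (log2 fold 0.36, deposited Cuffdiff q = 0.330). Lum had 66.3 FPKM in 7wkKO and 54.9 FPKM in 7wkWT (log2 fold 0.27), and Aspn had 32.3 FPKM in 7wkKO and 26.1 FPKM in 7wkWT (log2 fold 0.30). The levels of Dcn and Ogn were closest between the groups. Dcn had 492 FPKM in 7wkKO and 478 FPKM in 7wkWT, with a log2 fold of 0.04 and an interval of -0.52 to 0.61. Ogn had 65.1 FPKM in 7wkKO and 65.8 FPKM in 7wkWT in the authors' deposited table, with an interval of -0.74 to 0.71. Omd had 1.68 FPKM in 7wkKO and 1.50 FPKM in 7wkWT, and its SE of 2.70 was the largest among the 10 genes.

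Both comparisons use the same 7wkKO samples, so a chance deviation of that group moves their folds in opposite directions. The level in 9wkKO relative to 7wkWT was taken by adding the log2 folds of both comparisons, across 2 tables normalized separately, and no test applies to it. Fmod stood at -1.94 on this scale and Omd at -0.76. Podn stood at -0.50, and Aspn, Ogn, Dcn, Prelp and Lum lay between -0.29 and -0.20. Bgn stood at -0.03 and Nepn at 0.67. Thus Fmod was the member whose 9wkKO level lay farthest below the 7wkWT level, and Bgn was the one nearest to it.

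Regulatory sequence upstream of the called members is shown because Fmod, Podn and Prelp fell and Nepn rose in the same comparison. RefSeq promoters on GRCm38.p6 (the mm10 build of the files) were found for 8 of the 10 genes. Lum and Dcn had no entry. Below are the 250 bases before the RefSeq start site, 5′ to 3′ on the gene's strand, with capitals at each match to a TATA box (TATAAA), a GC box (GGGCGG), an AP-1 site (TGANTCA) or an E-box (CANNTG), searched on both strands. The N stands for any base. The windows are chr1:134037004-134037253 (plus strand) for Fmod, chr4:108031955-108032204 (minus strand) for the first of 2 Podn start sites, chr1:133921402-133921651 (minus strand) for Prelp and chr10:52391358-52391607 (plus strand) for Nepn.
Fmod: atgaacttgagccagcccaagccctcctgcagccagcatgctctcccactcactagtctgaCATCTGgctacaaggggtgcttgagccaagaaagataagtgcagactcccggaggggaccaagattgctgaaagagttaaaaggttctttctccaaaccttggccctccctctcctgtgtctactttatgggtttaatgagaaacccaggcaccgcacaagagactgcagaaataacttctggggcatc
Podn: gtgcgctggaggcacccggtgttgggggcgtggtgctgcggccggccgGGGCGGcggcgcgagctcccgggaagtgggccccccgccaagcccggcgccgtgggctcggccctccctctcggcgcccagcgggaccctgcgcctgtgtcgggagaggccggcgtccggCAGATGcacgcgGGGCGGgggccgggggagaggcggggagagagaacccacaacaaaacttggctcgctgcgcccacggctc
Prelp: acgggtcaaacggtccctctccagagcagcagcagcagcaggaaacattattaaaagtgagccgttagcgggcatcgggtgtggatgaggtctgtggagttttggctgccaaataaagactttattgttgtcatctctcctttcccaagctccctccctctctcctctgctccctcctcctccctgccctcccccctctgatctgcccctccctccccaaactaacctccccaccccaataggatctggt
Nepn: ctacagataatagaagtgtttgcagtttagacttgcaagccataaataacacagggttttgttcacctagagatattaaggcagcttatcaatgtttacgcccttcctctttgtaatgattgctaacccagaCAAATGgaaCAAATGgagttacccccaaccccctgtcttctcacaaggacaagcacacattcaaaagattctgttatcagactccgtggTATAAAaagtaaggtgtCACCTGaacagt

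No base of these windows belonged to matches of 2 different motifs. A TATA box began 29 bases before the start site in the Nepn window, and there was 0 in those of Fmod, Podn and Prelp. Among the members not called, the window of Ogn held 2 overlapping matches, 1 on each strand, at 229 and 227 bases before the start site. The Aspn window held 2 matches, at 207 and 178 bases before the start site, and those of Bgn and Omd held 0. The later log2 folds of Ogn and Aspn were -0.26 (interval -0.94 to 0.43) and -0.59 (interval -1.71 to 0.53). Whether the motif had a part in any of these folds was not tested. Over all 32851 promoters of the same length, 12.4% held this motif. The first Podn window held 2 GC boxes, at 202 and 70 bases before the start, a motif found in 32.7% of all promoters, and its GC content was 78.0%. The GC content was 55.6% for Prelp, 51.2% for Fmod and 40.4% for Nepn, beside a median of 52.4% over all promoters. E-boxes, present in 66.2% of all promoters, numbered 3 for Nepn, 1 each for Fmod and the first Podn window, and 0 for Prelp. The window of the second Podn start site, not printed above, held 3 E-boxes and 0 GC boxes, with a GC content of 64.0%. The AP-1 site, present in 6.75% of all promoters, was matched in 0 of the windows of the 8 genes. The deposited locus of Fmod starts 261 bases downstream of the RefSeq start site used here, and that of Podn ends 136 bases upstream of its start site, so the transcript starts in the authors' annotation may differ. For Prelp and Nepn the positions coincide. The RefSeq gene spans reach further upstream, however, to 133930102 for Prelp and to 52388864 for Nepn. The windows of these 2 genes thus lie within the RefSeq spans, and further start sites upstream of them were not examined.

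Most of the 10 genes lie in 3 clusters with other members of the family. In the deposited mm10 positions, Prelp (133910304 to 133921401 on chromosome 1) and Fmod (134037515 to 134048277) were nearest neighbours among the listed genes, 116114 bases apart. Both fell in 9wkKO relative to 7wkKO. Beyond Fmod lies Btg2, listed at 21.6 FPKM in 9wkKO and 23.0 FPKM in 7wkKO by the authors' table (log2 fold -0.09, deposited Cuffdiff q = 0.950). Optc, next to Prelp, encodes opticin of the vitreous. It was listed at 0.280 FPKM in 9wkKO, 0.196 FPKM in 7wkKO and 0.112 FPKM in 7wkWT and was not tested by the authors. On chromosome 10 Dcn (97479500 to 97518162) and Lum (97565501 to 97572703) lie 47339 bases apart, and Lum was called while Dcn was not. Further along, the cornea gene Kera was listed at 0 in 9wkKO and at 0.0264 FPKM in 7wkKO and 0.0309 FPKM in 7wkWT. Epyc, which encodes the cartilage proteoglycan epiphycan, was listed at 0.0987 FPKM in 9wkKO and 0.871 FPKM in 7wkKO in the authors' deposited table. Its log2 fold of -3.14 had an SE of 1.25 (deposited Cuffdiff q = 0.736).

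The flanking genes of Nepn and Bgn were not called in the later comparison where tested. Nepn lies at 52391608 to 52404604 on chromosome 10, between Gopc and Nus1. Gopc was listed at 10.5 FPKM in 9wkKO and 8.85 FPKM in 7wkKO (deposited Cuffdiff q = 0.533), and Nus1 at 21.5 FPKM in 9wkKO and 20.5 FPKM in 7wkKO (deposited Cuffdiff q = 0.969). Bgn lies at 73483635 to 73495936 on chromosome X, between Haus7, at 4.97 FPKM in 9wkKO and 5.39 FPKM in 7wkKO (deposited Cuffdiff q = 0.966), and Atp2b3, which was not tested. Podn lies at 108014793 to 108032090 on chromosome 4, and both neighbours, Slc1a7 and Mir6397, were not tested. Mir3966 beside Dcn and 4930473O22Rik beside Lum were listed at 0 in every group.

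The chromosome 13 members share 1 deposited locus (49464059 to 49652731) with Ecm2, a related matrix gene, and with Cenpp, a kinetochore gene. In RefSeq coordinates Aspn (49544443 to 49567565), Omd (49582462 to 49592612) and Ogn (49608015 to 49624501) lie on the plus strand within the span of Cenpp, which is on the minus strand. Their annotated exons share 7 bases with those of Cenpp for Aspn and 0 for Omd and Ogn. The fold SE of the 3 genes ran from 0.349 to 2.79 in the later comparison, against 0.240 to 0.462 for the 7 members on loci of their own. Of the 3, 0 were called in the later comparison by the deposited Cuffdiff test and 0 reached an unadjusted p under 0.05, against 5 called of the 7 others. Ecm2 was listed at 11.3 FPKM in 9wkKO, 15.1 FPKM in 7wkKO and 13.4 FPKM in 7wkWT in the authors' deposited tables (later log2 fold -0.43, SE 0.595, deposited Cuffdiff q = 0.754). The outer neighbours Ippk and Nol8 had later log2 folds of 0.03 and -0.03 (deposited Cuffdiff q = 0.994 each). All 4 proteoglycan genes of this locus had later folds below 0, from -0.92 to -0.26, and Cenpp had -0.15 with an SE of 2.70. Whether assignment of fragments within the shared locus widened these errors was not tested.

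**Figure D3:**
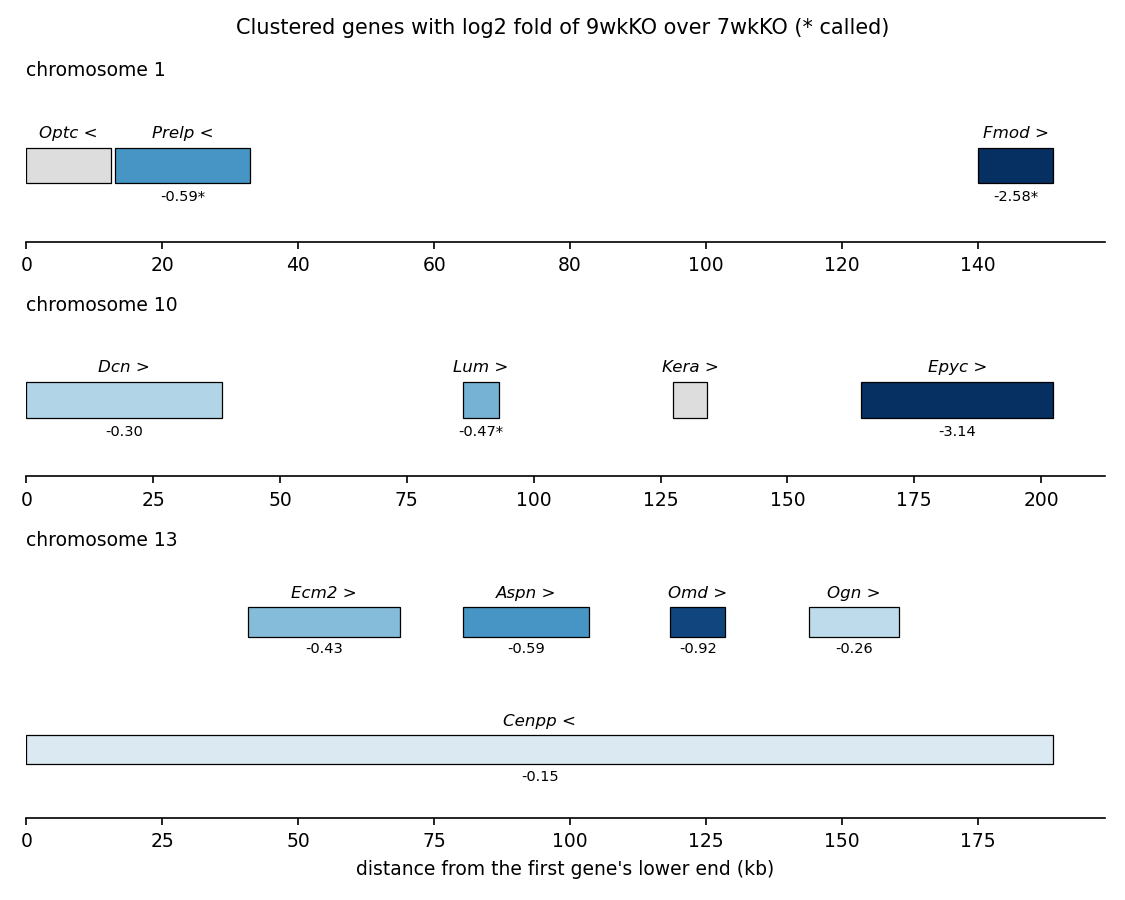
Gene spans of the 3 clusters by distance in kb from the lower end of the first gene drawn, from RefSeq positions. Shading and the number below each gene give its log2 fold of 9wkKO over 7wkKO (darker blue is lower, grey is not tested, a star marks a call, and > or < the strand). The shading stops at an absolute log2 fold of 1, so Fmod and Epyc have the same shade. Prelp (-0.59) and Fmod (-2.58) on chromosome 1 are both starred, Lum alone is starred on chromosome 10, and none is starred on chromosome 13.

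Of the other genes of the family, Ecm2 (11.3 FPKM in 9wkKO, 15.1 FPKM in 7wkKO and 13.4 FPKM in 7wkWT) was the most abundant, and the rest were at or under 4.19 FPKM. Of 9 such genes in the files, the authors tested 5. By their Cuffdiff test 0 were called in either comparison, and 0 had an unadjusted p under 0.05. Over all tested genes 4.66% were called in the later comparison and 2.37% at 7 weeks. With 5 genes tested, 0 calls cannot be told apart from those shares. The same shares are the background for the gene lists below. Chad encodes chondroadherin of cartilage and shares its deposited locus with Acsf2, on the other strand. It was listed at 0.536 FPKM in 9wkKO, 4.15 FPKM in 7wkKO and 2.90 FPKM in 7wkWT in the authors' deposited tables. Its later log2 fold of -2.97 had an SE of 1.97 (Cuffdiff p = 0.0641, q = 0.441 in the authors' table). Tsku was listed at 2.74 FPKM in 9wkKO, 2.39 FPKM in 7wkKO and 2.16 FPKM in 7wkWT, and Chadl at 1.09 FPKM in 9wkKO, 0.896 FPKM in 7wkKO and 0.973 FPKM in 7wkWT. Nyx, at 0.192 FPKM in 9wkKO, 0.222 FPKM in 7wkKO and 0.288 FPKM in 7wkWT, and Podnl1, at no more than 0.0271 FPKM, were not tested.

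The isoform tables listed 14 isoforms of the 10 genes, and 7 genes had a single isoform. At 7 weeks 0 of 14 tested isoforms were called by Cuffdiff (4 had an unadjusted p under 0.05), beside 1.42% of all tested isoforms. From 7 to 9 weeks 5 of 13 were called (4 lower, 1 higher), beside 2.93%. The isoforms of Dcn, NM_001190451 and NM_007833, start at different positions on chromosome 10 (97479609 and 97482367 in GENCODE M21), and both have 354 codons. NM_001190451 was listed at 223 FPKM in 9wkKO and 321 FPKM in 7wkKO by the authors' table (log2 fold -0.52, Cuffdiff p = 0.0338, q = 0.416). NM_007833 was listed at 180 FPKM in 9wkKO and 175 FPKM in 7wkKO (log2 fold 0.04, deposited Cuffdiff q = 0.997). The share of NM_001190451 was 55.4% in 9wkKO, 64.6% in 7wkKO and 55.1% in 7wkWT. The shares of the isoforms were thus closest in 9wkKO and 7wkWT, and the difference in share was not tested by the authors.

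Podn had 3 isoforms, of which NM_172874 has 611 codons in GENCODE M21. It was listed at 3.12 FPKM in 9wkKO and 6.70 FPKM in 7wkKO by the authors' table (log2 fold -1.10, deposited Cuffdiff q = 0.0368). NM_001285958 was listed at 3.53 FPKM in 9wkKO and 6.18 FPKM in 7wkKO (log2 fold -0.81, Cuffdiff p = 0.00230, q = 0.0706 in the authors' table). At 7 weeks neither of these isoforms was called. The log2 fold was 1.45 for NM_001285958 (interval -0.79 to 3.70) and -0.06 for NM_172874 (interval -0.89 to 0.77). Both intervals span both signs, so the direction of neither fold is settled. NM_001285958 was at 6.13 FPKM in 7wkKO and 2.23 FPKM in 7wkWT (deposited Cuffdiff q = 0.655), while NM_172874 was at 6.65 FPKM in 7wkKO and 6.92 FPKM in 7wkWT (deposited Cuffdiff q = 0.981). NM_172874 made up 43.3% of Podn in 9wkKO, 50.5% in 7wkKO and 68.4% in 7wkWT. The minor Aspn isoform NM_001172481 made up 1.23% of Aspn in 9wkKO, 4.50% in 7wkKO and 1.65% in 7wkWT.

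**Figure D4:**
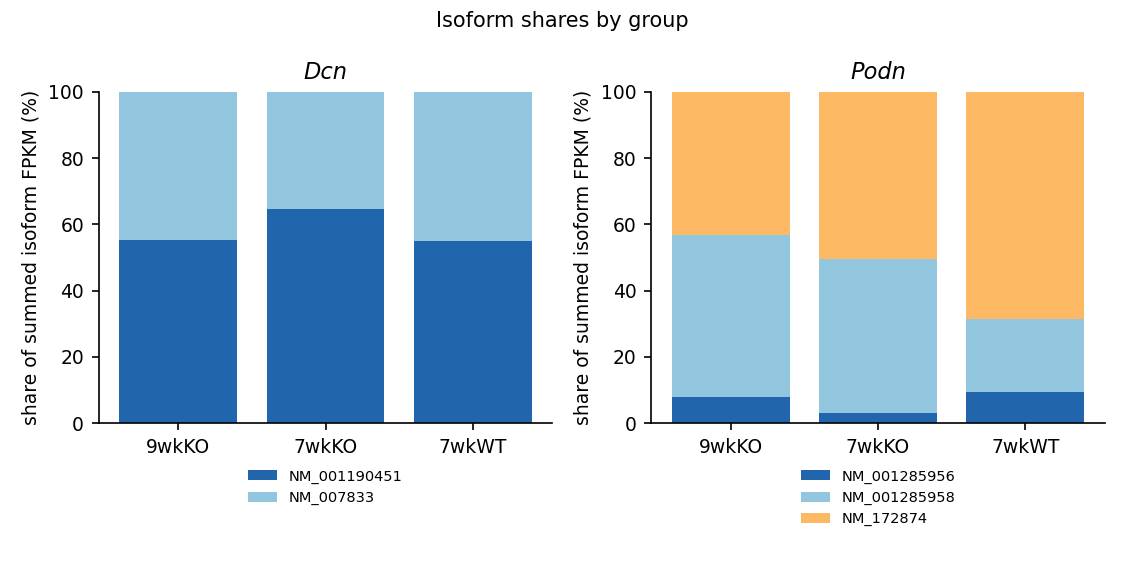
Share of the summed isoform FPKM (percent) of each listed isoform of Dcn and Podn in 9wkKO, 7wkKO and 7wkWT, as stacked bars, with 7wkKO taken from the table with 7wkWT. NM_001190451 of Dcn is at 55.4% in 9wkKO, 64.6% in 7wkKO and 55.1% in 7wkWT, and NM_172874 of Podn at 43.3% in 9wkKO, 50.5% in 7wkKO and 68.4% in 7wkWT.

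Collagens that these proteoglycans bind were called in both directions. Of 12 tested fibril-forming and associated collagens 3 were called lower in 9wkKO and 1 higher, from 7 to 9 weeks, with a median log2 fold of -0.10. Col12a1 and Col14a1, which sit on the fibril surface, fell to 0.464 and 4.66 FPKM in 9wkKO, against 1.03 and 6.79 FPKM in 7wkKO in the authors' deposited table. Col11a2 fell as well (log2 fold -0.91), and Col5a3 rose (log2 fold 0.93, deposited Cuffdiff q = 0.00237). The main fibril chains, named here after their values were seen, were not called. Col1a2 had 59.1 FPKM in 9wkKO and 72.6 FPKM in 7wkKO (log2 fold -0.30, Cuffdiff p = 0.0362, q = 0.324 in the authors' table). Col1a1 was at 63.2 FPKM in 9wkKO and 65.3 FPKM in 7wkKO, and Col3a1 at 91.1 FPKM in 9wkKO and 91.8 FPKM in 7wkKO (deposited Cuffdiff q = 0.991 and 0.997). At 7 weeks Col12a1 alone of the 12 was called, at 1.02 FPKM in 7wkKO and 0.618 FPKM in 7wkWT (log2 fold 0.72, deposited Cuffdiff q = 0.0418). Of 9 tested genes of collagen processing and cross-linking 1 was called in the later comparison, Pcolce2, an enhancer of procollagen cleavage (log2 fold -0.43, deposited Cuffdiff q = 0.0451), and 0 at 7 weeks (1 had an unadjusted p under 0.05). At 7 weeks the most abundant of them, Pcolce, had 71.9 FPKM in 7wkKO and 67.2 FPKM in 7wkWT in the authors' deposited table.

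Calls among enzymes that build the sugar chains of the proteoglycans were few. Over all tested genes 4.66% were called in the later comparison and 2.37% at 7 weeks, and these counts cannot be told apart from those shares. Of 19 tested genes of chondroitin and dermatan sulfate synthesis 1 was called, Chst15, a sulfotransferase, which rose to 6.34 FPKM in 9wkKO, against 4.33 FPKM in 7wkKO (log2 fold 0.55, deposited Cuffdiff q = 0.0104). The median log2 fold of the 19 was 0.16 in that comparison and -0.09 at 7 weeks, where Cuffdiff called 0 and 2 had an unadjusted p under 0.05. The most abundant at 7 weeks were B3gat3, at 25.8 FPKM in 7wkKO and 27.4 FPKM in 7wkWT, and Fam20b, at 25.4 FPKM in 7wkKO and 21.2 FPKM in 7wkWT. Of 6 tested genes of keratan sulfate synthesis Cuffdiff called 0 in either comparison, and an unadjusted p under 0.05 was reached by 1 in the later comparison and 2 at 7 weeks. Among them St3gal3 had 34.2 FPKM in 9wkKO and 32.5 FPKM in 7wkKO, and B4galt1 23.6 FPKM in 9wkKO and 25.1 FPKM in 7wkKO in the authors' deposited table.

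Receptors of the family sense its members on the cell surface. Of 9 tested receptors 2 were called, both higher in 9wkKO. Kdr, the VEGF receptor gene, was at 84.9 FPKM in 9wkKO and 48.4 FPKM in 7wkKO, and Cd14, a co-receptor for innate sensing, was at 7.64 FPKM in 9wkKO and 4.83 FPKM in 7wkKO in the authors' deposited table. Kdr is also on the endothelial list, whose summed level was 2708 FPKM in 9wkKO and 1924 FPKM in 7wkKO. Most of that sum was Fabp4, at 2199 FPKM in 9wkKO and 1557 FPKM in 7wkKO, which was not called (deposited Cuffdiff q = 0.0531). At 7 weeks Cuffdiff called 0 of the 9, and 4 had an unadjusted p under 0.05. Itgb1 and Kdr were the most abundant, at 144 and 48.1 FPKM in 7wkKO and 142 and 58.8 FPKM in 7wkWT. Of 10 TGF-beta ligands, receptors and latent binding proteins 2 were called higher at 7 weeks. These were Ltbp2, at 4.03 FPKM in 7wkKO and 2.20 FPKM in 7wkWT, and Tgfb2, at 4.58 FPKM in 7wkKO and 3.06 FPKM in 7wkWT in the authors' deposited table. Ltbp2 was the 1 member called in the later comparison, at 1.85 FPKM in 9wkKO and 4.06 FPKM in 7wkKO (log2 fold -1.13, deposited Cuffdiff q = 0.00237).

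Matrix proteases and their inhibitors, which cleave or spare these proteins, were called in both directions. Of 11 tested genes 2 rose and 2 fell in 9wkKO relative to 7wkKO. Mmp14 and Adamts5 rose to 9.30 and 7.17 FPKM in 9wkKO, against 5.85 and 5.10 FPKM in 7wkKO. Timp3 and Mmp2 fell to 145 and 36.3 FPKM in 9wkKO, against 223 and 48.6 FPKM in 7wkKO, in the authors' deposited table. Timp4 was the 1 gene of this list called at 7 weeks, at 51.9 FPKM in 7wkKO and 77.2 FPKM in 7wkWT (log2 fold -0.57, deposited Cuffdiff q = 0.0154). Of 15 tested proteoglycan genes outside the family 1 was called in the later comparison, Spock2 (log2 fold -0.58, deposited Cuffdiff q = 0.0170), with a median of -0.04. At 7 weeks Cuffdiff called 0 of the 15, and 3 had an unadjusted p under 0.05. The most abundant were Gpc1, at 175 FPKM in 7wkKO and 131 FPKM in 7wkWT, and Hspg2, at 92.4 FPKM in 7wkKO and 104 FPKM in 7wkWT.

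Markers of cell types that can make these proteins were set beside the results. Of 12 fibroblast markers Cuffdiff called 0 in either comparison. At an unadjusted p under 0.05 there were 2, both higher, in the later comparison and 0 at 7 weeks. Their summed level was 1391 FPKM in 9wkKO, 1482 FPKM in 7wkKO and 1426 FPKM in 7wkWT, with median log2 folds of -0.05 from 7 to 9 weeks and 0.09 at 7 weeks. Most of this sum was Gsn, and without it the sum was 463 FPKM in 9wkKO, 447 FPKM in 7wkKO and 449 FPKM in 7wkWT. Gsn and Cd34, the most abundant genes on this list, had 927 and 123 FPKM in 9wkKO, against 1043 and 106 FPKM in 7wkKO in the authors' deposited table. Whether either came from fibroblasts alone was not tested. Tendon and cartilage markers had 4 of 6 tested genes called lower in 9wkKO and 3 of 6 called higher in 7wkKO. Their summed level was 28.9 FPKM in 9wkKO, 46.6 FPKM in 7wkKO and 28.4 FPKM in 7wkWT. Among them the cartilage matrix gene Comp had 3.78 FPKM in 9wkKO and 9.90 FPKM in 7wkKO, Cilp2 0.251 FPKM in 9wkKO and 1.95 FPKM in 7wkKO, and Cilp 11.5 FPKM in 9wkKO and 17.3 FPKM in 7wkKO. Of the tendon genes, the transcription factor Scx was listed at 5.59 FPKM in 9wkKO, 7.45 FPKM in 7wkKO and 5.67 FPKM in 7wkWT and was not called, while Tnmd and Mkx were at or under 0.292 FPKM in every group.

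Atrial muscle markers had 7 of 9 tested genes called higher in 7wkKO than in 7wkWT and 7 of 9 called lower in 9wkKO than in 7wkKO. Their summed level was 847 FPKM in 9wkKO, 3018 FPKM in 7wkKO and 755 FPKM in 7wkWT, most of it Nppa. Without Nppa the sum was 80.2 FPKM in 9wkKO, 704 FPKM in 7wkKO and 339 FPKM in 7wkWT. Bmp10 was listed at 0 in every group. Several genes on the atrial and the tendon list, among them Dkk3, Sbk3, Mybphl and Comp, were placed there with their changes in these data known, so these counts are a description. Of 6 ventricular markers Cuffdiff called 0 in either comparison, and an unadjusted p under 0.05 was reached by 1 in the later comparison and 0 at 7 weeks. Endothelial markers had 3 of 7 called higher in 9wkKO than in 7wkKO. At 7 weeks Cuffdiff called 0 of them, though 6 had an unadjusted p under 0.05 and all 7 folds were below 0. Red cell markers had 1 of 3 called higher in 9wkKO than in 7wkKO and 0 called at 7 weeks, where 1 had an unadjusted p under 0.05. Epicardial, smooth muscle, macrophage, Schwann cell and adipocyte markers had 0 called by Cuffdiff in either comparison. In each comparison 7 smooth muscle, 7 macrophage, 4 Schwann cell and 2 adipocyte markers were tested. Of the epicardial markers 3 were tested at 7 weeks and 2 in the later comparison. With so few genes tested, 0 calls cannot be told apart from the shares over all tested genes. At an unadjusted p under 0.05 the later comparison held 1 smooth muscle, 1 Schwann cell and 1 adipocyte marker, and the comparison at 7 weeks held 2 epicardial and 1 smooth muscle marker. The part that any of these cell types had in the proteoglycan results was not tested.

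**Figure D5:**
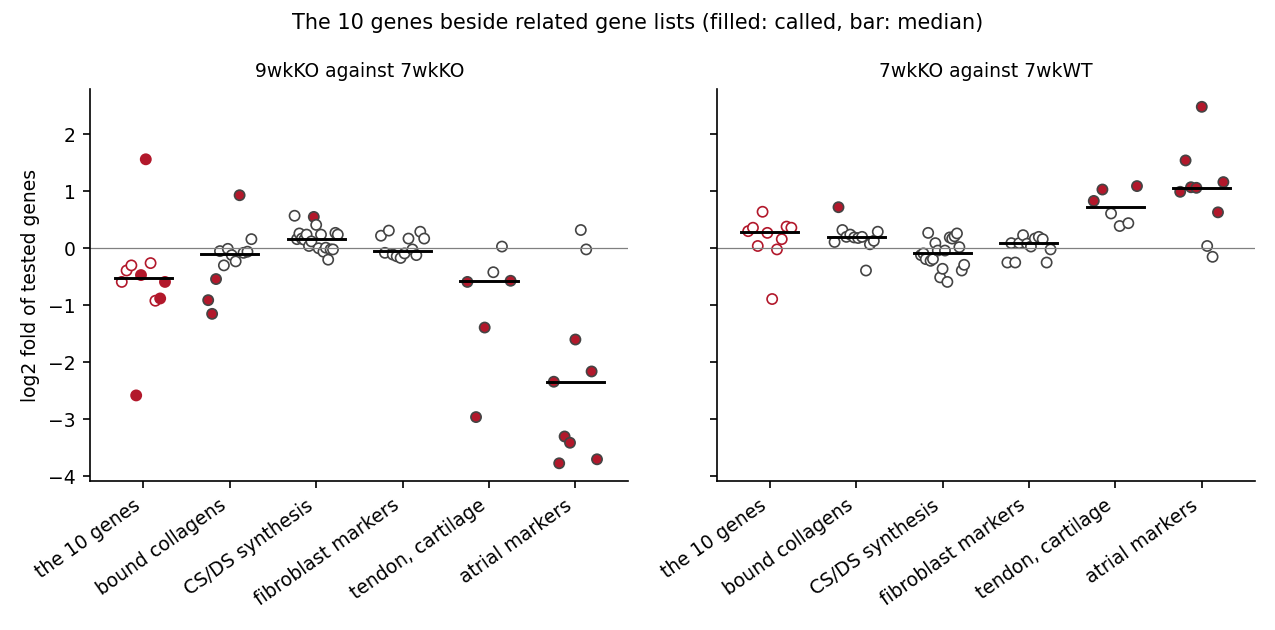
Log2 fold of every tested gene (points, filled where called) with the list median (bars) for the 10 proteoglycan genes and 5 related lists, in 9wkKO against 7wkKO (left) and 7wkKO against 7wkWT (right). The median of the 10 genes is -0.53 on the left and 0.29 on the right, that of the fibroblast markers -0.05 and 0.09, and that of the atrial markers -2.34 and 1.06.

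The genes most like Fmod across the 3 groups were sought by the Euclidean distance of both log2 folds, among 11264 genes tested in both tables that reached 1 FPKM in every group. The 5 nearest were Sbk3, Dkk3, Angptl7, Myl4 and Myl7, at distances of 0.42, 0.43, 0.60, 0.84 and 0.93. Sbk3, a kinase gene, had log2 folds of -2.16 in 9wkKO against 7wkKO and 0.63 in 7wkKO against 7wkWT, beside -2.58 and 0.64 for Fmod. Its levels in the authors' deposited tables were 2.02 FPKM in 9wkKO, 8.95 FPKM in 7wkKO and 5.78 FPKM in 7wkWT. All except Angptl7 are on the list of atrial markers, which was drawn up with the changes of these genes in these data known, so their number is no result. The genes nearest to Nepn were Rps19-ps3, Efhd1, Apol10b, Ccl7 and Ass1, at distances of 0.31 to 0.46. Efhd1 had 4.01 FPKM in 9wkKO, 1.50 FPKM in 7wkKO and 2.31 FPKM in 7wkWT in the authors' deposited tables. Its later log2 fold was 1.41 (deposited Cuffdiff q = 0.00237), while those of Rps19-ps3 and Ass1 were not called. Likeness here rests on 3 group values per gene and on folds that share the 7wkKO samples.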

How the data were processed

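RNA was poly(A)-selected and made into stranded libraries, per the labels' protocols. Per the submitters' processing notes, TopHat2 and Cuffdiff were used with mm10. Their versions, settings and annotation: not given in the sources used here. Per the file headers, the 4 tables hold 1 FPKM per group at gene or isoform level. Each row also has the authors' p-value, q-value and test statistic, a score. The p-values are whole multiples of 5e-05, and their normal deviate is 1.74 times the deposited statistic (median over 11864 genes at 7 weeks). Errors here come from the statistic, so they are at the median wider than those behind the p (0.284 against 0.163 on the log2 scale over all genes tested at 7 weeks). No pseudocount was added. The 7wkKO values of the 10 genes differed between the tables by 0.683% to 0.876%, and each fold uses the values of its own table. Depth per sample is unknown, and the calculations were tested on simulated data.

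The 10 genes and the 20 gene lists were chosen with earlier results of these data known. Named were all 10 genes, the rest of the family, the nearest genes on each side, up to 4 called genes of each list (with 0 called, the 2 highest) and the 5 nearest patterns of the gene with the largest fall and the largest rise. Of the marker lists, the text gives counts and only some of these genes. File starts were raised by 1 to give browser positions. Motif matches were counted in RefSeq promoters (250 bases before the start), and exons came from GENCODE M21. The folds and counts were computed in Python 3.11.15 with pandas 2.3.3, NumPy 2.4.6 and SciPy 1.17.1, and plots were drawn with Matplotlib 3.10.9. Alternatives were other thresholds, a minimum fold, recomputed adjustment, the statistic alone, an FPKM filter, isoforms, pseudocounts and centring.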

Additional observations from a re-analysis of the deposited data

How the results depend on the processing

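Of 243 recomputed values (folds of the 10 genes, and counts of calls among them, over the related lists and over all genes), 218 kept their direction and side of the threshold or, for counts, stayed within 1.5 times, and 25 did not. Pseudocounts and centring carried over the deposited call, so only the direction of a fold could change there. Other thresholds, the recomputed adjustment, the statistic and the FPKM filter kept the fold itself, so only the call could change. Part of the 218 was thus fixed in advance, and that number is no measure of robustness. From 7 to 9 weeks 5 of the 10 genes were called. A minimum log2 fold of 1 left 2, ending the calls of Podn (-0.88), Prelp (-0.59) and Lum (-0.47). A normal p of the deposited statistic left 1, Fmod, and ended those of Podn (-0.88), Prelp (-0.59), Lum (-0.47) and Nepn (1.56). A q under 0.01 ended that of Lum (-0.47). At 7 weeks a q under 0.1 called 1 of the 10, Fmod (0.64), and the most abundant Podn isoform had a log2 fold of -0.06, against 0.38 for the gene. Calls over the related lists, 14 at 7 weeks, became 8 at a q under 0.01, 7 with the minimum fold and 1 by the statistic. The 28 of the later comparison became 12 both with the minimum fold and by the statistic. Over all genes, 284 calls at 7 weeks became 136 at a q under 0.01, 430 at a q under 0.1, 52 with the minimum fold and 14 by the statistic. The 561 later calls became 337 at a q under 0.01, 123 with the minimum fold and 69 by the statistic. Keeping only the 7 genes on loci of their own, an alternative chosen after seeing the data, left 0 calls at 7 weeks and 5 later. For single lists, 234 of 280 recomputed counts of calls stayed within 1.5 times and 46 did not. Omd has no value under the FPKM minimum of 1 in the later comparison. No paired analysis was possible because each group has a single deposited value, and for the same reason no replicate was left out. Without depth or values per sample, the errors of low genes such as Omd and Nepn rest on the deposited statistic alone.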
